A study of Mus musculus with 16 samples.

Results

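The 7 liver tumors with a mutated Ctnnb1 gene are described here one by one, as 7 of the 16 samples measured on a reverse-phase protein array. Such an array carries small spots of tissue lysate, and the fluorescence that an antibody leaves on them, called the signal below, stands for the amount of its target. The tumors were chosen by their sample titles, with no use of a signal, and every antibody was kept (158 antibodies, 50 of them against a phosphorylation site, for 101 protein symbols). The tumors came from male C3H/HeJ mice on phenobarbital. The other samples were 3 phenobarbital control livers, 3 control livers without phenobarbital and 3 tumors with a mutated Ha-ras from the arm without phenobarbital, and they are used below only to check labels. According to the series' design text every mouse had a single injection of the carcinogen diethylnitrosamine, at 10 or 90 µg per g of body weight and at 2 or 6 weeks of age, and the labels do not say which tumor had which dose or age. The labels also disagree on phenobarbital: 27 weeks in the sample characteristics, 0.05% in the diet for 28 to 36 weeks in the design text, and 28 days in drinking water in the protocols. The labels do not say which Ctnnb1 mutation a tumor carries or whether the 7 tumors came from 7 animals, so a spread between them may hold biological and technical parts.

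Beta-catenin is the protein through which Wnt signals reach the nucleus. It is phosphorylated for destruction by a complex that holds APC and GSK3, and tumor mutations in Ctnnb1 commonly alter the sites that this complex needs. In the liver lobule Wnt signals act around the central vein, where hepatocytes make glutamine synthetase (GLUL) and the cytochromes P450 CYP1A2 and CYP2E1. Phenobarbital promotes the growth of Ctnnb1-mutated liver tumors in mice and induces P450 enzymes of the CYP2B, CYP2C and CYP3A families together with their electron donor, P450 reductase (POR). Antibody names are those of the files, which use human symbols. A number at the end of a name (CYP2E1_1, CYP2E1_2) tells antibodies to 1 protein apart, and a P stands before a phosphorylated residue. The sources used here do not say which mouse member of a P450 family an antibody reads.

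Tumor 6 needs a remark before the results. GLUL had a signal of 54.1, 51.1, 47.5, 35.2, 30.1, -0.0233 and 9.30 in tumors 1 to 7. In tumor 6 the value was below 0 and below the blank row of the array that matches this antibody, at 0.0578. The phenobarbital control livers, where GLUL is a protein of few cells, had 2.27 to 27.9, so tumor 6 lay under every one of them and tumor 7 within their range. For CYP2B6_3 and phosphorylated ERK tumor 6 lay within the range of the other tumors, but not for CYP1A2_1 and both CYP2E1 antibodies, described below. CYP2B6_3 had 215 in tumor 6 and 183 to 294 over the 7 tumors, with 175 to 223 in phenobarbital control livers, 11.5 to 31.3 in control livers without phenobarbital and at most 3.81 in Ha-ras tumors. Phosphorylated ERK (MAPK3_P-T202/Y204) had 1.50 in tumor 6 and 1.31 to 1.84 over the 7 tumors, with 3.38 to 8.98 in Ha-ras tumors. Whether tumor 6 differs from the others in its mutation was not tested. The authors' deposited table of log2 values lists GLUL at -0.49 for tumor 6 and -1.08 for tumor 7. It thus places tumor 6 above tumor 7, although the deposited signal of tumor 6 has no logarithm.

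For the spread, each tumor's log2 signals were centred on the tumor's own median, and the SD over the 7 tumors was taken for each antibody. The median SD was 0.21 log2 (10th percentile 0.13, 90th percentile 0.60, lowest 0.06, highest 1.40). In terms of fold, the highest tumor stood 1.54-fold over the lowest for the median antibody, under 2-fold for 124 antibodies and at least 4-fold for 10. An SD of 0.5 or more was reached by 22 of 158 antibodies (13.9%), and by 14 of the 103 antibodies that were at 2 times their blank or more in all 7 tumors. Without tumor 6 the count was 18, and without tumor 7 it was 18 as well. The 6 rows of the dye Alexa647, which measure no protein, had an SD of 0.15 to 0.28, and 102 antibodies lay at or under the highest of these. Antibodies to phosphorylation sites had a median SD of 0.21 and the other antibodies one of 0.23, and 4 of the 22 antibodies with an SD of 0.5 or more were against a site.

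**Figure D1:**
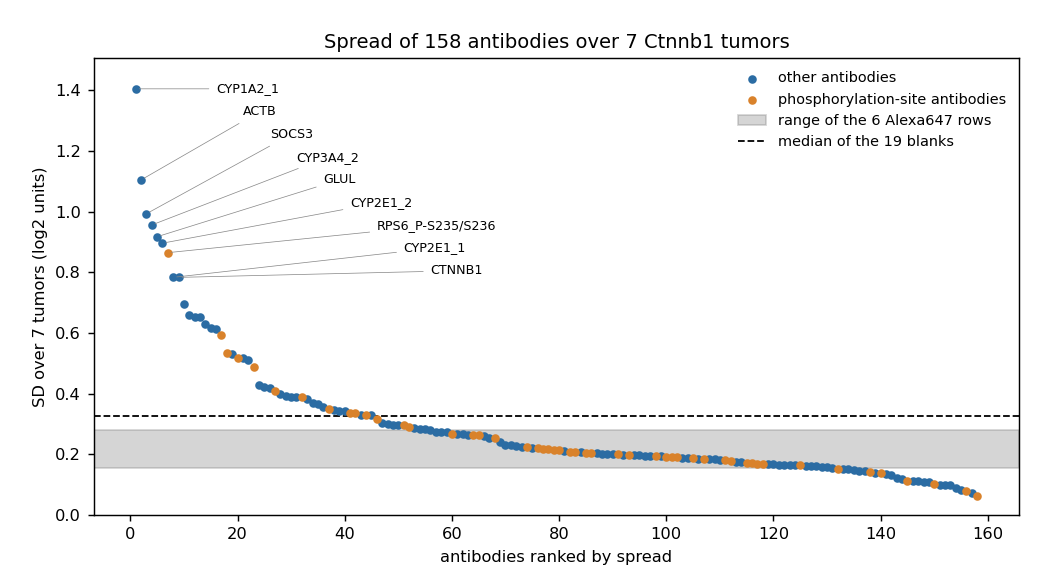
SD of the centred log2 signal over the 7 Ctnnb1 tumors (vertical axis) for the 158 antibodies in order of SD (horizontal axis), with GLUL over 6 tumors. The grey band is the range of the 6 Alexa647 rows (0.15 to 0.28) and the dashed line the median of the 19 blanks (0.33); most antibodies lie in or under the band, and CYP1A2_1 stands alone at 1.40.

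The tumors differed in which proteins set them apart. Of 1099 antibody values, 21 (1.91%) were 2-fold or more away from the median tumor. Tumor 6 had 5 values 2-fold or more below the median tumor, which were CYP1A2_1, CYP2E1_1, CYP2E1_2, CYP1A1_1 and CCNA2, and 1 above, SOCS3. Tumor 7 was 2-fold or more below for both CYP2E1 antibodies and CYP3A4_2, and above for CTNNB1 and GAPDH. The GAPDH antibody was under 2 times its blank in 4 tumors. Tumor 1 was above for CDC25A and MKI67, and below for RPS6_1, SOCS3 and ACTB. Tumor 3 was above for RPS6_P-S235/S236, HIST1H3A and SOCS3, and below for CYP3A4_2. Tumor 5 had 1 such value, CTNNB1, and tumors 2 and 4 had none. GLUL in tumor 6 has no logarithm and is not among these counts.

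**Figure D2:**
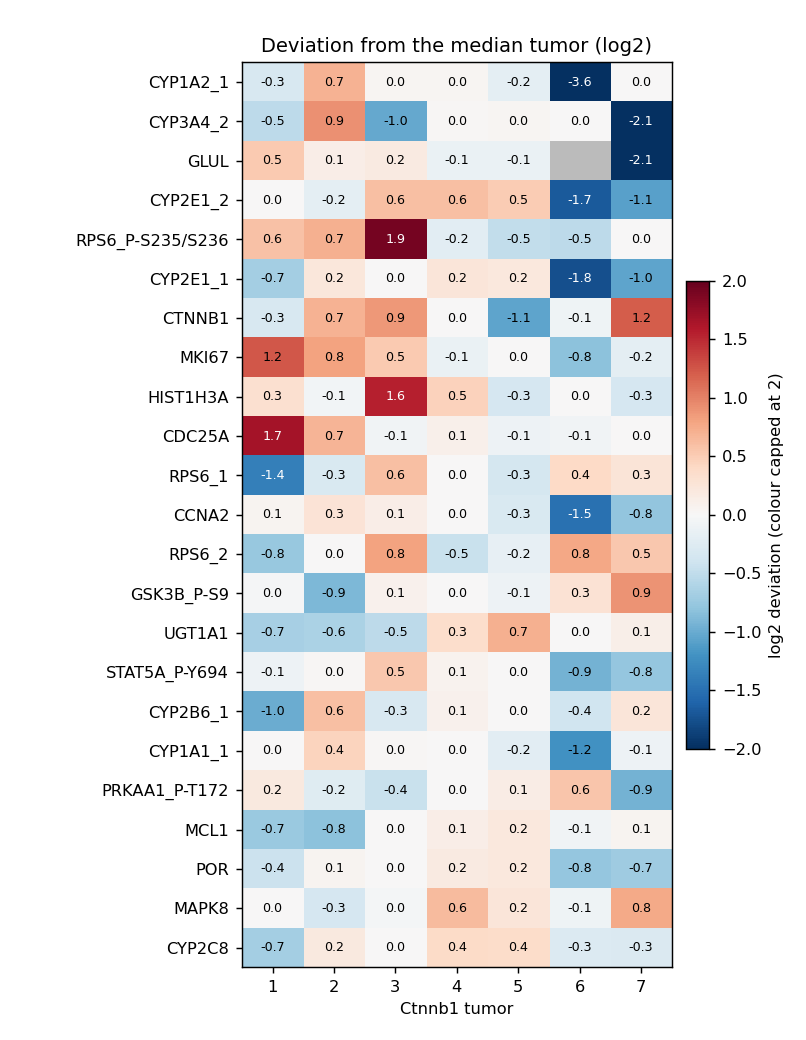
Deviation of each tumor (columns) from the median tumor, in log2 units of centred signal, for 23 of the 25 antibodies with the largest SD among the 123 whose median signal was at least 2 times their blank (rows, from the largest SD down). Blue is below and red above the median tumor, the printed numbers are the deviations, and grey marks GLUL in tumor 6; tumor 6 has the deepest blue at CYP1A2_1 (-3.57), and tumor 3 the deepest red at RPS6_P-S235/S236 (1.91).

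Which proteins vary together was asked of every pair of antibodies, by the correlation of their centred log2 signals over the tumors. No pair passed a test over all pairs. With two-sided exact permutation of the tumors and Benjamini-Hochberg adjustment over the 12403 pairs, 0 (0%) had an adjusted p under 0.05, the smallest was 0.381, and 1201 (9.68%) had an unadjusted p under 0.05. By Spearman's rho 0 passed as well, with a smallest adjusted p of 0.392 and 1161 pairs at an unadjusted p under 0.05. An r of 0.8 or more in size was found for 800 pairs (6.45%), of which 610 were positive and 190 negative, and the median r was 0.17. The r values given below are descriptions of these 7 tumors.

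The beta-catenin targets of the perivenous zone had the largest median SD of the protein lists examined. Of the 5 antibodies to GLUL, CYP1A2 and CYP2E1, 4 had an SD of 0.5 or more, and their median SD was 0.90. After centring, 3 of the 5 were lowest in tumor 6, where GLUL has no logarithm and is left out. Over all antibodies 13.9% had such an SD and the median was 0.21. Tumor 6 was the lowest after centring for 19 of the 157 antibodies with a value in every tumor. Without tumor 6 the perivenous antibodies had a median SD of 0.55, with 3 of 5 at 0.5 or more. In bulk tissue fewer cells with the protein and less protein per cell cannot be told apart. GLUL, which joins ammonia to glutamate, had an SD of 0.92 over the 6 tumors with a positive signal and of 0.27 without tumor 7. The 5 tumors other than 6 and 7 lay between 30.1 and 54.1, so the spread of GLUL was that of tumors 6 and 7 against the rest.

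CYP1A2_1 reads a P450 that oxidises caffeine and aromatic amines, and its signals were 10.8, 27.4, 15.5, 14.2, 10.4, 1.02 and 13.9 in tumors 1 to 7. Tumor 6 stood 11.9-fold below the median tumor on the centred scale, and the other 6 lay between 10.4 and 27.4. The SD was 1.40 over the 7 tumors and 0.35 without tumor 6. Tumor 7, low in GLUL, was at the median tumor here. The second antibody, CYP1A2_2, had 0.401 to 0.61 with an SD of 0.27, and tumor 6 was not its lowest (0.529). For CYP1A2_1 the Ha-ras tumors had 0.484 to 0.625, the control livers without phenobarbital 1.54 to 2.18 and the phenobarbital control livers 8.15 to 9.56. Tumor 6 thus lay above the Ha-ras tumors and below every control liver.

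CYP2E1 oxidises ethanol and other small molecules and was read by 2 antibodies. CYP2E1_2 had 19.2, 21.0, 32.4, 29.8, 24.0, 5.35 and 9.26 in tumors 1 to 7 (SD 0.90). CYP2E1_1 had 0.883, 2.05, 1.57, 1.71, 1.43, 0.372 and 0.70 (SD 0.78). Without tumor 6 these SDs were 0.66 and 0.55. Tumors 6 and 7 were the lowest by both antibodies, and tumor 1 was the third from the bottom by both. The 2 antibodies correlated over the tumors with Pearson's r = 0.91 and Spearman's rho = 0.75 (two-sided exact permutation p = 0.00813 and 0.0663, p adjusted over all pairs 0.427 and 0.541). With tumors 6 and 7 left out r was 0.36, so the relation rested on these 2 tumors. CYP1A1_1, an antibody to a P450 of the same family as CYP1A2, was also lowest in tumor 6, at 0.513, with 1.0 to 2.25 in the other tumors. It correlated with CYP1A2_1 at r = 0.97 (rho 0.79), and at 0.19 without tumors 2 and 6, so this relation too rested on these tumors.

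**Figure D3:**
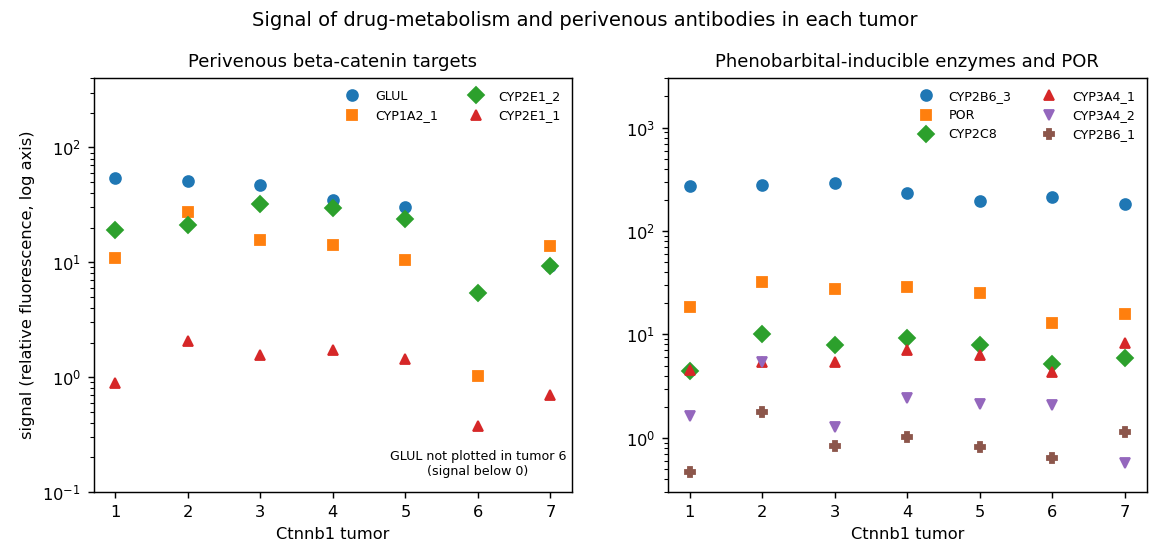
Signal (relative fluorescence, log axis) in each of the 7 tumors (horizontal axis) for antibodies to perivenous beta-catenin targets (left) and to phenobarbital-inducible enzymes and POR (right), each point 1 tumor. On the left, tumors 6 and 7 hold the lowest values of GLUL and CYP2E1, with GLUL of tumor 6 (-0.0233) not drawn, and CYP1A2_1 is low in tumor 6 at 1.02; on the right, CYP2B6_3 stays between 183 and 294.

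Of the 7 antibodies to phenobarbital-inducible enzymes and POR, 2 had an SD of 0.5 or more and the median SD was 0.39, beside 13.9% and 0.21 over all antibodies. CYP2B6_3, the brightest antibody of the set, had 271.5, 276.3, 293.5, 234.96, 196.0, 214.6 and 183.2 in tumors 1 to 7 (SD 0.20). Its highest tumor was less than 2-fold over its lowest. POR, the flavoprotein that passes electrons to every microsomal P450, had 18.5, 32.1, 27.7, 28.6, 25.4, 12.9 and 15.6 (SD 0.42), lowest in tumors 6 and 7. CYP2C8 had 4.40 to 10.1 (SD 0.39), lowest in tumor 1. CYP3A4_2 had 1.61, 5.46, 1.28, 2.42, 2.11, 2.09 and 0.565 (SD 0.96), while CYP3A4_1 had 4.35 to 8.32 (SD 0.37) and was highest in tumor 7, the tumor lowest for CYP3A4_2.

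POR followed CYP2E1_1 from tumor to tumor (r = 0.97, rho 0.89, exact permutation p = 0.000794, adjusted p = 0.381), and unlike the pairs above it did so without tumors 6 and 7 (r = 0.97). The r of CYP2E1_1 and POR was positive in 4 of 5 other scalings and -0.30 after quantile normalization. POR and CYP2C8 correlated at 0.81 (rho 0.82), and at 0.95 without tumors 1 and 4. GLUL and CYP2B6_3 correlated at 0.91 over 6 tumors (rho 0.83) and at 0.59 without tumors 1 and 7, and with tumor 6 ranked as the lowest in GLUL their rho over 7 tumors was 0.54. GLUL against CYP1A2_1 gave an r of 0.01 over 6 tumors and a rho of 0.39 over 7. CYP2B6_1, with 0.465 to 1.77 and an SD of 0.52, correlated with CYP2B6_3 at -0.72 (rho -0.89) on the centred scale and at -0.02 without centring. CYP2B6_2 and CYP2B6_3 had an r of -0.29 when centred, of 0.36 without centring and of 0.57 in the authors' deposited table.

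UGT1A1 and CYP4F2 had closely similar patterns on the centred scale. UGT1A1, which couples bilirubin to glucuronic acid, had 4.48, 5.69, 5.51, 9.24, 10.2, 6.36 and 7.90 in tumors 1 to 7 (SD 0.53), lowest in tumor 1 and highest in tumor 5. It correlated with CYP4F2, a P450 of fatty acids and leukotrienes, at r = 0.99 (rho 0.89, exact permutation p = 0.000794, adjusted p = 0.381), the largest positive r of any pair. Without tumors 2 and 5 the r was 0.98, and under 5 other scalings of all 7 tumors it was 0.64 to 0.93. CYP4F2 itself moved little, from 0.327 to 0.409 (SD 0.20).

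Beta-catenin itself was among the more variable proteins. Total CTNNB1 had 1.62, 4.09, 4.14, 2.08, 0.859, 1.72 and 4.82 in tumors 1 to 7 (SD 0.78). Tumors 2, 3 and 7 were high, tumor 5 was low, and the highest lay over 4-fold above the lowest. The order of CTNNB1 was not that of GLUL: tumor 7 was highest in CTNNB1 and second lowest in GLUL. Over the 6 tumors with a GLUL value r was -0.49 (rho -0.20, exact permutation p = 0.315, a pair chosen after its values were seen). Without tumor 7 this r was 0.23, and with tumor 6 ranked as the lowest in GLUL the rho over 7 tumors was -0.04. CTNNB1_P-S675, a site phosphorylated by protein kinase A and PAK kinases, had 1.66 to 2.86 (SD 0.34) and correlated with total CTNNB1 at -0.17. CTNNB1_P-T41/S45, in the stretch that marks beta-catenin for destruction, had 0.14 to 0.263 (SD 0.30) and correlated with the total at 0.07.

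The largest r in size with CTNNB1 over the 7 tumors was negative, with CREB1, a transcription factor that responds to cyclic AMP (r = -0.94, rho -0.89, adjusted p = 0.381). JAK1 (-0.89), HRAS (-0.86) and PTPN11 (-0.83) also ran opposite to CTNNB1, and the nearest antibody of the same direction was the receptor MET (0.80). The r of CTNNB1 with JAK1, HRAS and PTPN11 turned to 0.11, 0.02 and 0.19 without centring, and that with CREB1 stayed negative in 5 of 5 other scalings, at -0.62 to -0.15. CREB1 had a narrow range of 0.264 to 0.375. In the destruction complex GSK3B had an SD of 0.12, while its inhibitory site GSK3B_P-S9 had 0.205, 0.139, 0.246, 0.214, 0.172, 0.228 and 0.40 (SD 0.53), highest in tumor 7 and under 2 times its blank in 2 tumors. APC was at or below its blank in tumors 3 and 4 and is not read further.

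Ribosomal protein S6, a subunit of the small ribosomal subunit that S6 and RSK kinases phosphorylate, gave the most variable site. RPS6_P-S235/S236 had 5.68, 7.70, 15.9, 3.34, 2.37, 2.37 and 3.88 in tumors 1 to 7 (SD 0.86), with tumor 3 the highest at 3.77-fold over the median tumor. Without tumor 3 the SD was 0.53. Total RPS6_1 had 3.15, 8.21, 13.7, 8.30, 5.63, 9.55 and 9.98 (SD 0.65, and 0.38 without tumor 1), with tumor 3 highest and tumor 1 lowest. The second total antibody, RPS6_2, ran with the first (r = 0.87, rho 0.89, adjusted p = 0.426, and r = 0.75 without tumors 1 and 3). RPS6_2 was dim, with signals of 0.0987 to 0.327, under 2 times its blank in 3 tumors. The site did not follow either total (r = 0.09 and 0.20). Tumor 1 shows this best, with the lowest total and the third highest site. The S6 kinase site RPS6KB1_P-T389 could not be read, since its signals of 1.04 to 3.12 followed its blank, which had 0.891 to 3.31.

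Most of the other members of the PI3K and mTOR pathway described here had smaller SDs. AKT1 had an SD of 0.11 and a range of 0.337 to 0.438. AKT1_P-S473, the site that marks full activation of the kinase, had 0.168 to 0.245 (SD 0.27), with an r of 0.81 against AKT1 that turned to -0.35 after blank subtraction. PDK1_P-S241 had the lowest SD of all 158 antibodies on the centred scale, 0.06, with signals of 3.62 to 4.78, but an SD of 0.13 to 0.25 under 5 other scalings. MTOR had an SD of 0.18 and correlated with MCL1, a survival protein of the BCL2 family with 0.208 to 0.39 (SD 0.42), at r = 0.97 (rho 0.96, adjusted p = 0.381).

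None of the 17 antibodies of the Ras and ERK cascade had an SD of 0.5 or more, and their median SD was 0.20, beside 13.9% and 0.21 over all antibodies. MAPK3_P-T202/Y204 had 1.42, 1.45, 1.60, 1.54, 1.31, 1.50 and 1.84 in tumors 1 to 7 (SD 0.20). MAPK3, which is ERK1, had 1.92 to 3.01 (SD 0.25), and the site followed it (r = 0.83, rho 0.89, adjusted p = 0.451), both highest in tumor 7. HRAS had 0.533 to 0.666 (SD 0.16). MAP2K1, the kinase MEK1, had 27.0 to 45.8 (SD 0.28) and its site MAP2K1_P-S217/S221 0.265 to 0.319 (SD 0.15), with r = -0.12 between them.

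Several stress kinases were close in pattern. The 7 antibodies to these proteins form 21 pairs, with a median r of 0.60 and 28.6% of pairs at an r of 0.8 or more in size, beside a median of 0.17 and 6.45% over all 12403 pairs. The list was chosen with earlier results known, and no test of it was made. MAPK14, the p38 kinase, had 0.662, 0.604, 0.722, 0.835, 0.745, 0.899 and 0.919 in tumors 1 to 7 (SD 0.36). MAPK14_P-T180/Y182, its active form, had 1.53, 1.42, 1.70, 2.12, 1.81, 2.04 and 1.95 (SD 0.35). Tumors 1, 2 and 3 were the lowest by both.

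The active form and the total of MAPK14 correlated at 0.97 (rho 0.86, exact permutation p = 0.00218, adjusted p = 0.381), the highest r of all site and total pairs. The active form of JNK, MAPK8_P-T183/Y185, put the 7 tumors in the same order as MAPK14 on the centred scale (rho 1, r = 0.97, exact permutation p = 0.000198, the smallest that permuting 7 tumors can give, adjusted p = 0.381). JUN, the transcription factor that JNK phosphorylates, had 0.21 to 0.26 and was under 2 times its blank in 3 tumors. It correlated with MAPK14_P-T180/Y182 at 0.96, and at 0.52 to 0.90 under 5 other scalings. These r stayed positive in 5 of 5 other scalings. All of these antibodies had a low relative signal in tumor 2, the tumor with the highest median signal (0.791, with 0.532 to 0.675 in the others), and the part of this scale difference in their correlation was not tested.

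**Figure D4:**
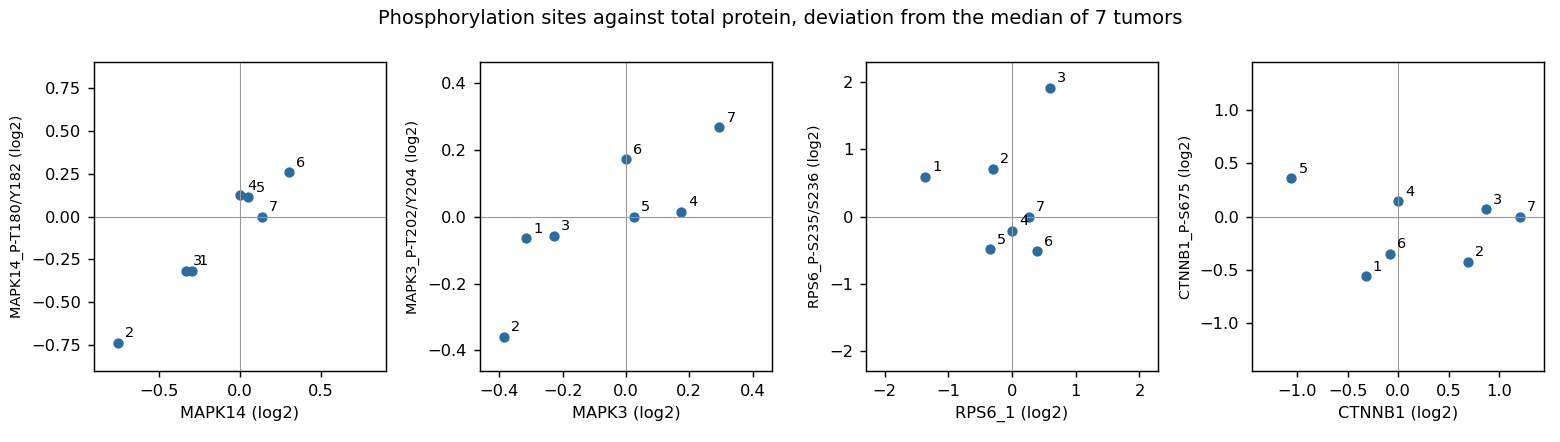
Log2 deviation from the median tumor of a phosphorylation site (vertical axis) against that of its total protein (horizontal axis), each point 1 of the 7 tumors with its number. The points run along a line for MAPK14 (r = 0.97) and MAPK3 (r = 0.83), and show no such line for RPS6_1 (r = 0.09) and CTNNB1_P-S675 (r = -0.17).

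Over all 46 pairs of a site and its total protein the median r was 0.19. An r of 0.8 or more in size was found for 6 (13.0%), all positive, beside 6.45% of all pairs. An r below 0 was found for 17 (37.0%), beside 38.5% of all pairs. Beside MAPK14 and MAPK3 the 6 included MAP3K7 (0.90, with the total under 2 times its blank in all 7 tumors), AKT1 (0.81) and RPS6KA1_P-T573 (0.80). For 35 of the 46 pairs, the ratio of site to total had a larger SD than the site itself. A ratio takes on the spread of the total as well, so this follows by arithmetic where site and total correlate weakly. The same share over pairs of unrelated antibodies was not taken. The lowest r were those of ERBB2_P-Y877 (-0.70), RPS6KA1_P-S380 (-0.68), MET_P-Y1349 (-0.67), EIF2A_P-S51 (-0.59) and PRKAA1_P-T172 (-0.59), and the first 3 turned positive in the authors' deposited table. ERBB2_P-Y877, RPS6KA1_P-S380 and MAP3K7_P-S412 matched no blank, so their height over background is unknown. PRKAA1_P-T172, the activating site of the energy sensor AMPK, had 1.80, 1.66, 1.29, 1.61, 1.54, 2.08 and 0.844 in tumors 1 to 7 (SD 0.49), with tumor 6 highest and tumor 7 lowest, while PRKAA1 had 0.192 to 0.265.

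Different antibodies to 1 protein were compared in the same way. Of 11 such pairs, 2 (18.2%) had an r of 0.8 or more, the CYP2E1 and RPS6 pairs above, beside 6.45% of all pairs, and the median was 0.20. Without centring the median was 0.74.

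**Figure D5:**
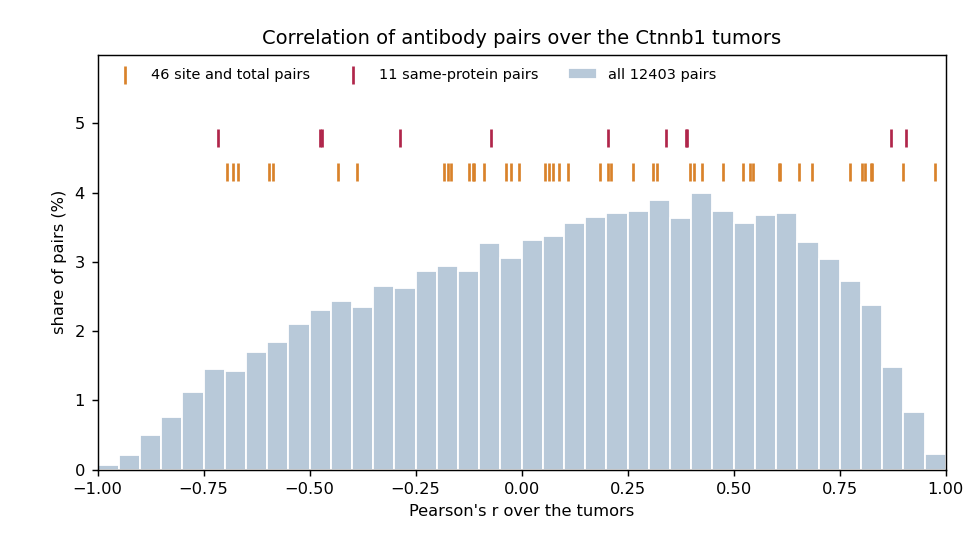
Share of antibody pairs (vertical axis, percent) by Pearson's r over the tumors (horizontal axis), with a tick for each of the 46 site and total pairs (lower line) and each of the 11 pairs of antibodies to 1 protein (upper line). Both sets spread over the range of all pairs, with medians of 0.19 and 0.20 beside 0.17 over all 12403.

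Of the proliferation markers, MKI67 and CCNA2 were higher in each of tumors 1, 2 and 3 than in the other 4. MKI67, a nuclear protein of cycling cells, had 1.18, 1.08, 0.797, 0.466, 0.438, 0.252 and 0.447 in tumors 1 to 7 (SD 0.70). CCNA2, the cyclin of S phase and G2, had 8.11, 11.7, 9.54, 7.97, 5.55, 2.48 and 4.65 (SD 0.63, and 0.38 without tumor 6). The 2 correlated at 0.82 (rho 0.86) and at 0.59 without tumors 6 and 7, a pair chosen after its values were seen. CDC25A, a phosphatase that activates cyclin-dependent kinases, was highest in tumor 1 at 1.63, with 0.422 to 1.03 in the others (SD 0.65, and 0.30 without tumor 1). CCND1, a cyclin of G1, had 1.97 to 3.57 (SD 0.15). Other antibodies to proteins and sites of dividing cells ran otherwise: AURKA_P-T288, the activating site of a mitotic kinase, had its lowest signal in tumor 1, and HIST1H3A_P-S28, a site phosphorylated in mitosis, was highest in tumor 7. The 9 antibodies of the cell cycle list, which leaves out CCNA2 and CDC25A, form 36 pairs, with a median r of -0.08 and 1 pair (2.78%) at an r of 0.8 or more in size, beside 0.17 and 6.45% over all pairs.

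GLUL can be set beside these by rank in all 7 tumors, since its lowest tumor is known. MKI67 had the largest positive rank correlation (rho 0.93, and 0.89 without tumor 6), with ERBB2 and CCNA2 next (0.86 each). RXRA, a nuclear receptor, was as large in size with the opposite sign (rho -0.93), and CYP1A2_2 had -0.89. BAX, MAPK14, MAPK8_P-T183/Y185 and HIST1H3A_P-S10 had -0.86 each. CYP1A2_2 was under 2 times its blank in 2 tumors and HIST1H3A_P-S10 in 6. These were the extremes of 157 antibodies, and the exact permutation p of 0.00675 for MKI67 and for RXRA is unadjusted. GLUL, MKI67 and CCNA2 were all lowest in tumor 6. By Pearson's r over 6 tumors the antibody nearest to GLUL was MAP2K4 (0.95), at 0.26 without tumor 7, so rank and r named different antibodies.

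Histone H3 stood out in 1 tumor. HIST1H3A had 11.3, 10.9, 29.7, 12.7, 6.28, 8.10 and 7.32 in tumors 1 to 7 (SD 0.66), highest in tumor 3, the tumor that also led RPS6_P-S235/S236. The 2 antibodies correlated at 0.80 (rho 0.36), and at 0.25 without tumor 3. Without tumor 3 the SD of HIST1H3A was 0.33. Of the 5 antibodies to H3 modifications, 3 had their highest signal in tumor 3, and 2 after centring. Over the array tumor 3 was highest after centring for 21 of 157 antibodies. The median of the blanks named rb was also highest in tumor 3, at 0.111, with 0.063 to 0.0923 in the others. The part of this background in the H3 modification signals was not tested. The trimethylated lysine, HIST1H3A_TM-K27, had 0.231 in tumor 3 and 0.103 to 0.145 in the others (SD 0.33), with a signal under 2 times its blank in 3 tumors. The SD was 0.16 for HIST1H3A_DM-K4, 0.21 for HIST1H3A_A-K18 and HIST1H3A_P-S28, and 0.41 for HIST1H3A_P-S10, which was under 2 times its blank in 6 tumors.

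STAT proteins, which carry cytokine signals, differed among themselves. STAT5A_P-Y694 had 0.228, 0.309, 0.395, 0.264, 0.215, 0.113 and 0.146 in tumors 1 to 7 (SD 0.52), lowest in tumors 6 and 7. It was dim, and in tumor 6 it was under 2 times its blank, which had 0.0833 there. Its SD was 0.94 after blank subtraction and 1.06 in the authors' deposited table. STAT3_P-Y705 was among the 10 steadiest antibodies on the centred scale (SD 0.10, 0.293 to 0.394).

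The steadiest antibodies with a readable signal on the centred scale also included PPARA_2 (SD 0.07), PTK2B (0.08), PAK1 (0.09), EIF2AK3, CDC25C and AURKB (0.10 each) and PON3 (0.11). Under 5 other scalings PAK1 had an SD of 0.12 to 0.29, PON3 one of 0.12 to 0.26 and AURKB one of 0.07 to 0.21, so their place among the steadiest depends on the scaling. PPARA_2 had an SD of 0.10 to 0.17 under these scalings. The 4 antibodies to the hepatocyte regulators HNF4A and PPARA had a median SD of 0.11. HNF4A itself had 1.35 to 1.55 in the 7 tumors and a centred SD of 0.19. PPARA_1 was under 2 times its blank in 2 tumors and PPARA_3 in 1. Of the markers listed for other cell types, CDH2 alone was on the array, with 5.14 to 12.6 (SD 0.36), and hepatocytes make it too. Its blank, shared with RPS6KB1_P-T389, had 0.891 to 3.31. Differences in cell makeup could therefore hardly be measured, and their part in the spread was not tested. ACTB (0.296 to 2.95, SD 1.10, and 0.71 without tumor 1) and SOCS3 (0.0976 to 0.695, SD 0.99) had large spreads but matched no blank, so whether they exceeded background is unknown.

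Whole tumors were compared by the mean absolute difference in centred log2 signal over the antibodies. Tumors 4 and 5 were the most alike (0.179), and tumors 1 and 7 the least (0.417). Tumor 2 was the lowest tumor for 52 of 157 antibodies after centring and tumor 5 the highest for 46. Their median signals were 0.791 and 0.561, the highest and the second lowest of the 7. The first principal component held 33.6% of the variance, ran from tumor 1 (2.81) to tumor 6 (-4.33), and was led by CYP1A2_1, MKI67, CYP2E1_2 and CCNA2. Without tumor 6 the first component held 33.5% and was led by ACTB, CDC25A and CYP3A4_2. The second held 20.9% and set tumor 1 (-3.12) against tumor 3 (2.49).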

How the data were processed

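Each deposited sample file held intensities (relative fluorescence) for 183 rows: 158 antibodies, 19 blanks and 6 Alexa647 rows. Per the labels' protocols, frozen liver was lysed in an 8-fold excess of denaturing buffer and read with fluorescent secondary antibodies. The sources used here do not say how intensities were scaled before deposit. The authors' deposited table of log2 values served as an alternative. It also gave the blank of an antibody, wherever log2 of the intensity less 1 blank matched it within 0.01 log2 in at least 12 samples (145 antibodies, and 1 matched without a blank).

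Intensities were log2 transformed without blank subtraction and centred per sample on its median over 155 antibodies, those above 0 in each of the 16 samples. GLUL in tumor 6, the 1 tumor value at or below 0, was treated as missing. SDs, Pearson's r and Spearman's rho over the tumors used Python 3.11.15, numpy 2.4.6, pandas 2.3.3 and scipy 1.17.1, with exact permutation of the tumors and Benjamini-Hochberg adjustment over all pairs. The number of tumors limits the precision.

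The antibodies to name were the 25 largest and 10 smallest SDs among those with a median of at least 2 times the blank, the pairs with the largest r, and fixed proteins of the beta-catenin, P450, ERK, AKT and STAT groups. Some of these are not reported here, and others are named beyond the rule, chosen after their values were seen. The tumors, lists and limits were chosen with earlier results of these data known. No sequence is printed, since no protein sequences were used here.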

Additional observations from a re-analysis of the deposited data

Results flagged for a closer look

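Of 47 antibodies checked, 4 had 1 tumor whose gap to its nearest neighbour, as a share of the whole range of centred log2 signals, was past Dixon's critical value (0.568 for 7 tumors, 0.625 for 6). Chance gives about 1 in 20 for antibodies picked without regard to their spread. Of the 47, 23 were picked for a large SD over these same tumors, which 1 far tumor raises, so this rate does not hold for them. CYP1A2_1 was low in tumor 6 (0.761), and so was CYP1A1_1 (0.598). GLUL was low in tumor 7 (0.743 over the 6 tumors with a positive signal, which leave out the still lower tumor 6). HIST1H3A was high in tumor 3 (0.578). Over all 158 antibodies, 12 were past the limit.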

How the results depend on the processing

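No pair passed the adjusted threshold in any of the 15 alternatives. The 7 that leave out 1 tumor say little of this, since 345 pairs at the smallest p that 6 tumors allow (0.00139) would be needed to pass, against 50 with 7 tumors (0.000198). The number of antibodies with an SD of 0.5 or more, 22, was 40 in the authors' deposited table, 38 after blank subtraction and 14 among antibodies at 2 times their blank in all tumors, and 18 to 23 with 1 tumor left out. Blank subtraction widens dim antibodies by construction. Of the 25 largest SDs, 14 were shared with the authors' table and 15 after blank subtraction. The share of pairs at an r of 0.8 or more in size, 6.45%, was 9.97% without centring and 8.23% to 11.1% with 1 tumor left out. The median r of site and total pairs, 0.19, was 0.39 without centring, 0.39 scaled to the Alexa647 rows, 0.11 after quantile normalization, 0.28 in the authors' table and 0.33 among bright antibodies, and 0.14 to 0.25 with 1 tumor left out. The median r of antibodies to 1 protein, 0.20, was 0.74 without centring, 0.74 scaled to the Alexa647 rows, 0.72 in the authors' table and -0.041 among bright antibodies, and 0.00045 to 0.33 with 1 tumor left out. The median r of all pairs was 0.34 without centring and 0.29 scaled to the Alexa647 rows, beside 0.17. Of 62 named pairs at 0.8 or more in size, 13 changed sign under at least 1 other scaling; the cause was not tested. No paired analysis was possible because the tumors form 1 group and no groups were compared. Signals near the blank limit what dim antibodies can show: 103 of 158 antibodies were at 2 times their blank or more in all 7 tumors.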

Other observations

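The blank named ms_1, to which the RPS6KB1_P-T389 and CDH2 antibodies matched, had signals of 3.04, 3.31, 1.14, 1.06, 0.891, 1.91 and 3.09 in tumors 1 to 7, high in tumors 1, 2 and 7. Over all 16 samples, 16 antibody values lay at or below their blank, 5 of them in the Ctnnb1 tumors, and the authors' deposited table holds a number for each. That table lists SOCS3 at 0 in all 7 tumors and ACTB at 0.38 to 1.31.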
